A study of Homo sapiens and Mus musculus with 10 samples.

Results

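The genes described here are 10 genes of the integrated stress response, ATF4, ATF3, ATF5, DDIT3, TRIB3, CHAC1, ASNS, DDIT4, SESN2 and EIF4EBP1. They were chosen by symbol, with earlier results of these data known but with no threshold on their values, and all 10 were found among the 27800 symbols of the human table and the 24493 symbols of the mouse table. The study treated cells of a human leukaemia line and of a mouse line with WM-1119, a small molecule that inhibits the histone acetyltransferase KAT6A. Its stated purpose was to measure what KAT6A inhibition does to the transcriptional program of these cells. MOLM-13, a human acute myeloid leukaemia line, received 4 µM WM-1119 for 4 days (3 libraries) and was set against DMSO, the vehicle (3 libraries). ER-Hoxa9, a mouse line, received 2 µM WM-1119 for 4 days (2 libraries) and was set against DMSO (2 libraries). Every ER-Hoxa9 library, of either treatment, came from cells kept in β-estradiol and stem cell factor, and every MOLM-13 library from cells kept in serum without them, per the labels. Each line stands for 1 cell line grown in culture, and the labels do not say whether libraries of a group came from separate cultures. The p-values therefore measure only the spread between these libraries.

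The integrated stress response is set off by kinases that phosphorylate the translation initiation factor eIF2, among them GCN2, which senses a lack of amino acids, and PERK, which senses unfolded protein in the endoplasmic reticulum. Phosphorylated eIF2 slows translation in general but raises translation of ATF4, a bZIP transcription factor, so the mRNA of ATF4 is not a direct measure of its protein. ATF4 then binds with C/EBP partners to genes of amino acid supply, redox balance and growth control. Among those genes, ATF3, ATF5 and DDIT3 (the protein CHOP) encode further bZIP factors, TRIB3 a pseudokinase that holds ATF4 and CHOP back, and ASNS the enzyme that makes asparagine. CHAC1 encodes an enzyme that breaks down glutathione. DDIT4 (REDD1) and SESN2 encode inhibitors of the growth kinase mTORC1, and EIF4EBP1 encodes the repressor of cap-dependent translation that mTORC1 switches off.

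The sites below are shown because ATF4 and its C/EBP partners recognise a composite element whose core reads TGATGNAA. That core was searched on both strands in the 250 bases before the start of each RefSeq transcript (GRCh38.p14). It was found for ASNS, ATF3 and CHAC1, that is in 3 of the 17 windows of the 9 genes with an entry, against 3.14% of all 35116 windows. Some genes had several overlapping windows among the 17. In the GENCODE annotation, exons covered all 250 bases of the CHAC1 window, 134 of the ASNS window and 73 of the ATF3 window. The CHAC1 and ASNS sites thus lie before the start of a RefSeq transcript but inside the GENCODE span of the gene. Capitals mark the core, which for CHAC1 lies on the opposite strand.
ASNS, chr7:97872458-97872487, minus strand, 68 bases before the start: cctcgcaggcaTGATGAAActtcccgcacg
ATF3, chr1:212565205-212565234, plus strand, 191 bases before the start: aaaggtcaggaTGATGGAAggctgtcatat
CHAC1, chr15:40953251-40953280, plus strand, 209 bases before the start: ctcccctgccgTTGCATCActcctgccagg

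The upstream regions of DDIT4 (246 bases, after trimming 4 exon bases) and SESN2 (250 bases) are shown because these were the 2 genes with lower TPM under WM-1119 in all 3 same-numbered pairs of MOLM-13 libraries. Neither window held TGATGNAA. Capitals mark CCAAT read on the opposite strand (ATTGG), which occurred 2 times in each. CCAAT on either strand was found in 6 of the 17 windows, for 5 of the 9 genes (ATF3, CHAC1, DDIT3, DDIT4 and SESN2), and in 32% of all windows. A match says only that these letters are there.
DDIT4, chr10:72273674-72273919, plus strand: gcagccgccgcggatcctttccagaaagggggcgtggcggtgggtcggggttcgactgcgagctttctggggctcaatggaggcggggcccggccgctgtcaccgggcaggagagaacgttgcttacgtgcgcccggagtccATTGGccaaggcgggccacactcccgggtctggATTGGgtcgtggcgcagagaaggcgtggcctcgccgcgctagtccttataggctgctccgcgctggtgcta
SESN2, chr1:28259268-28259517, plus strand: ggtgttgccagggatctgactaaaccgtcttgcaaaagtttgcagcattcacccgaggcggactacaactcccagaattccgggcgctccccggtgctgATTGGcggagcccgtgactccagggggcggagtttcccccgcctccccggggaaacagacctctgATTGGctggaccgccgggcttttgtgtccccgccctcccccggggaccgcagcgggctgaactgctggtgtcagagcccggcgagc

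Expression was given as TPM, a level per transcript length and relative to all transcripts of the same library, so the depth behind each value is unknown. Between 12112 and 12416 genes per MOLM-13 library and between 11042 and 11446 per ER-Hoxa9 library reached 1 TPM. KAT6A mRNA lay at 13.9 to 21.2 TPM in WM-1119 and 13.6 to 22.8 TPM in DMSO libraries of MOLM-13, which does not measure inhibition of the enzyme. Myeloid markers were abundant in MOLM-13, with a summed level of 11145 to 16879 TPM in WM-1119 and 7892 to 15057 TPM in DMSO libraries, PRTN3 leading. Of the 13 tested, 12 had a positive and 1 a negative fold change. In every same-numbered pair 9 were higher under WM-1119, beside 28.6% of all genes, and 1 (FLT3) was lower. MOLM-13 libraries listed the megakaryocyte genes PF4 and PPBP and the B cell gene MS4A1 at 0, and all 6 stromal markers averaged below 1 TPM. Summed over each list, megakaryocyte markers (GP1BA leading) were at 1.45 to 1.98 TPM in WM-1119 and 1.37 to 2.45 TPM in DMSO libraries. T or NK cell markers (NKG7 leading) were at 132 to 155 TPM in WM-1119 and 97.9 to 171 TPM in DMSO libraries, erythroid markers at 0.187 to 301 TPM in WM-1119 and 0.212 to 211 TPM in DMSO libraries. Both replicate 3 libraries stood apart: HBA1, an alpha globin, was at 158 TPM in the WM-1119 and 95.2 TPM in the DMSO library and at most 0.439 TPM in the other 4. Ribosomal protein genes took 33.9% of TPM in WM-1119 replicate 3 and 39.8% in DMSO replicate 3, against 25.7% to 28.4% in the other MOLM-13 libraries. The part of these differences in the results below was not tested.

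In MOLM-13, none of the 10 stress response genes rose or fell under WM-1119 by the test, and the levels of all but ATF5 differed more between replicate numbers than between treatments. Fold changes were negative for 9 of 10, ATF5 being the exception, but every WM-1119 range overlapped its DMSO range. Both libraries numbered 1 were low in 8 of the 10 genes whatever the treatment. Fewer responding cells and less RNA per cell cannot be told apart in such bulk libraries.

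**Figure D1:**
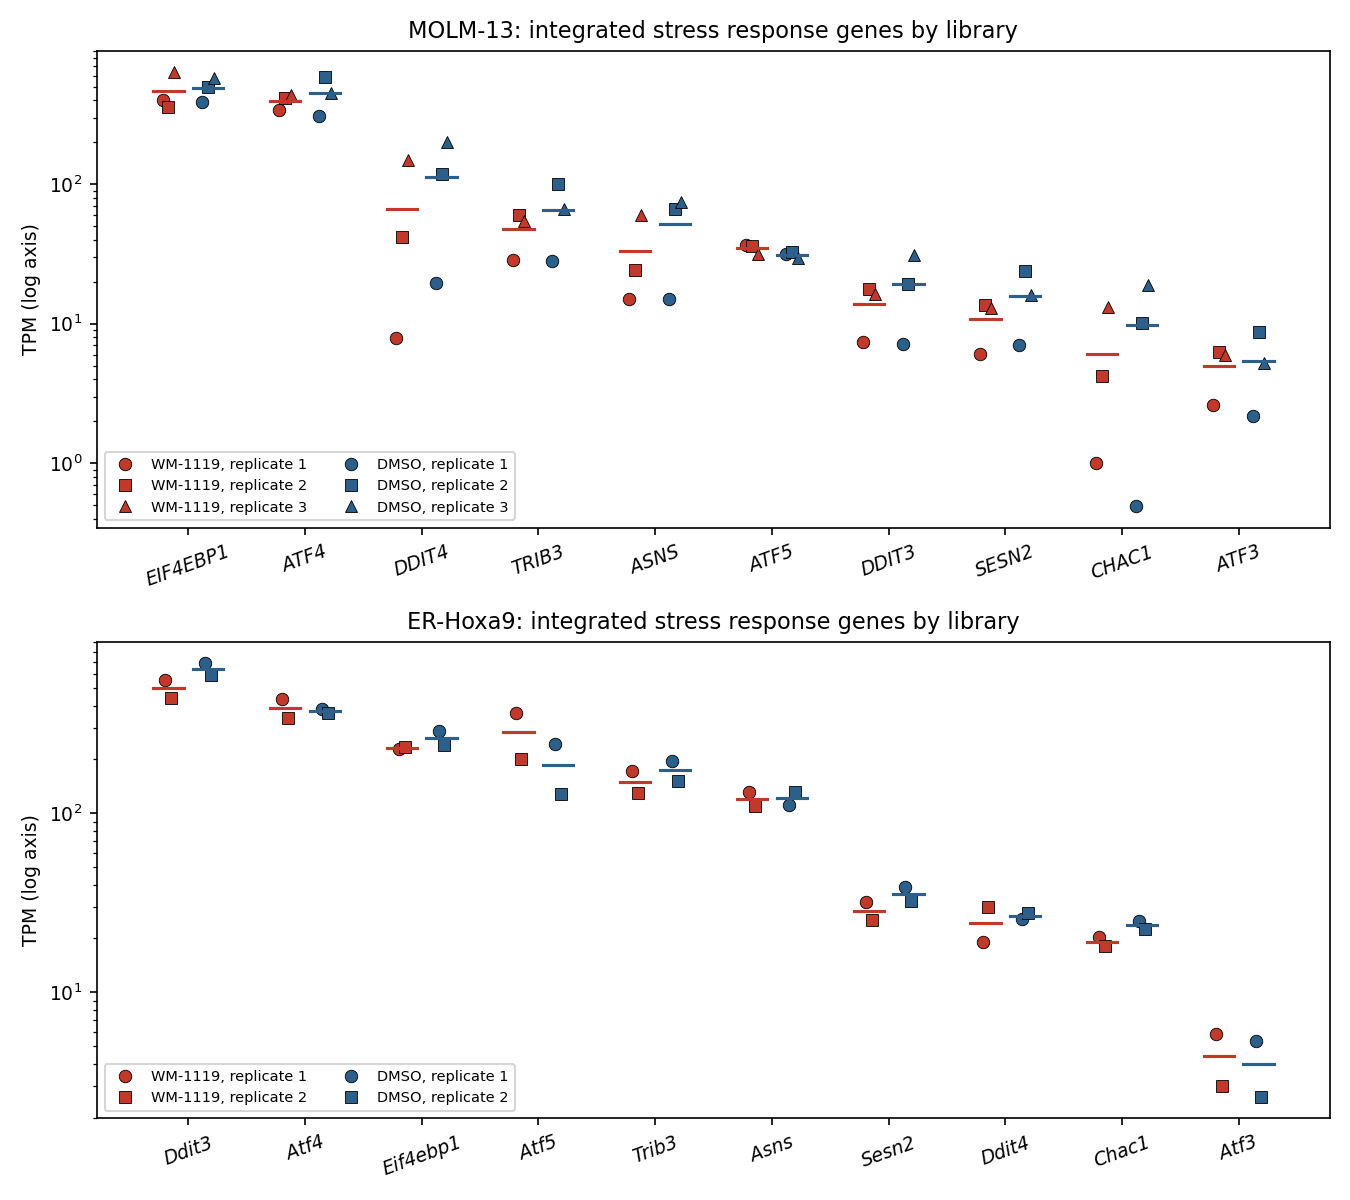
Level of each gene in each library, in TPM on a log axis, for MOLM-13 (above) and ER-Hoxa9 (below), WM-1119 in red and DMSO in blue; marker shape gives the replicate number and bars the group means. In MOLM-13 the 2 circles of a gene lie below its other symbols for all genes but ATF5 and EIF4EBP1, so the colours overlap.

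ATF4 itself (GRCh38 chromosome 22, 39519695 to 39522685) was among the most abundant of the 10. It had 338, 417 and 434 TPM in WM-1119 replicates 1 to 3, against 311, 591 and 449 TPM in DMSO replicates 1 to 3. The lowest value was in DMSO replicate 1 and the highest in DMSO replicate 2, with all WM-1119 libraries between them. Means were 396 ± 51.4 TPM under WM-1119 and 450 ± 140 TPM under DMSO (SD, n = 3 each). The log2 fold change was -0.14 ± 0.26 (SE; limma on log2(TPM + 1), adjusted p = 1.00). Limma is a linear model fitted across all genes, here with Benjamini-Hochberg adjustment over the 12436 genes averaging at least 1 TPM and a threshold of 0.05, and it gave the same adjusted p of 1.00 for each of the 10 genes.

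Of the other bZIP factors, ATF3 (chromosome 1, 212565334 to 212620777) was the scarcest of the 10. It had 2.61, 6.25 and 6.01 TPM in WM-1119 libraries, against 2.17, 8.72 and 5.27 TPM in DMSO libraries. Both first libraries held less than any other, and the log2 fold change was -0.02 ± 0.45. DDIT3 (chromosome 12, 57516588 to 57521737) had 7.43, 17.7 and 16.3 TPM in WM-1119 libraries, against 7.19, 19.4 and 31.2 TPM in DMSO libraries. Its first libraries were again the lowest, DMSO replicate 3 was the highest, and the log2 fold change was -0.33 ± 0.53. DDIT3 lies over the opposite-strand genes MARS and MBD6, and ATF5 over NUP62 and IL4I1, and whether counting used strand is not given in the sources used here. On the same strand, DDIT3 overlaps the microRNA MIR616 and ATF5 overlaps MIR4751, each with an entry of its own.

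ATF5 (chromosome 19, 49928702 to 49933935) varied least of the 10. It had 36.8, 35.9 and 31.7 TPM in WM-1119 libraries, against 31.4, 32.6 and 29.8 TPM in DMSO libraries, a 1.24-fold span over all 6. It was the 1 gene of the 10 with a positive fold change (log2 0.15 ± 0.16) and the 1 gene higher under WM-1119 in all 3 pairs, which was so for 28.6% of all genes. With median-of-ratios scaling, which aligns the libraries on their typical gene, and after removal of ribosomal protein genes it was no longer higher in every pair.

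TRIB3 (chromosome 20, 362835 to 397559), the brake on ATF4 and CHOP, had 28.6, 60.0 and 54.5 TPM in WM-1119 libraries, against 28.4, 101 and 66.1 TPM in DMSO libraries. In the replicate 1 pair the WM-1119 value was 101% of the DMSO value, and in the other pairs it was lower. The log2 fold change was -0.33 ± 0.48. ASNS (chromosome 7, 97852118 to 97872542), whose window carries the core shown above, had 15.0, 24.4 and 60.3 TPM in WM-1119 libraries, against 15.0, 66.8 and 75.0 TPM in DMSO libraries. It showed the same order: equal first libraries, and less under WM-1119 in the other 2 pairs, with means of 33.3 ± 23.9 TPM under WM-1119 and 52.2 ± 32.6 TPM under DMSO (SD, n = 3 each). Its log2 fold change was -0.57 ± 0.70, at -1.30 without DMSO replicate 1, -1.11 without WM-1119 replicate 3 and -0.14 without WM-1119 replicate 1. Reads of ASNS may be shared with its pseudogene ASNSP1, which has an entry of its own.

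CHAC1 (chromosome 15, 40952962 to 40956519) had the largest ratio of highest to lowest library of the 10, but its lowest value was below 1 TPM. DDIT4 had a 25.4-fold span and a larger SE of the fold change (1.15 against 1.04 for CHAC1). It had 1.01, 4.22 and 13.1 TPM in WM-1119 libraries, against 0.494, 10.1 and 18.8 TPM in DMSO libraries, a 38.1-fold span. In the first pair WM-1119 had the higher value and in the other pairs the lower, and the log2 fold change was -0.38 ± 1.04.

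The mTORC1 inhibitor genes had the lower WM-1119 value in each pair. DDIT4 (chromosome 10, 72273920 to 72276036) had 7.85, 41.9 and 148 TPM in WM-1119 libraries, against 19.7, 118 and 199 TPM in DMSO libraries. The WM-1119 value was 39.9%, 35.5% and 74.5% of the same-numbered DMSO value, yet the libraries of 1 treatment lay further apart than the treatments of any pair. The log2 fold change was -1.04 ± 1.15, and it was 0.02 without WM-1119 replicate 1 and -2.02 without WM-1119 replicate 3. Those fits leave the replicate numbers unequal between the treatments. With replicate number as a block (below) and a whole pair left out, it was -0.95, -0.82 and -1.35 without replicates 1, 2 and 3. No gene was called in those blocked fits. SESN2 (chromosome 1, 28259527 to 28282491) had 6.02, 13.6 and 12.9 TPM in WM-1119 libraries, against 7.07, 24.0 and 16.1 TPM in DMSO libraries. These were 85.1%, 56.7% and 80.4% of the same-numbered DMSO value, with a log2 fold change of -0.42 ± 0.46 that came to -0.06 without DMSO replicate 2. In the blocked fits without replicate pairs 1, 2 and 3 it was -0.53, -0.25 and -0.49.

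EIF4EBP1 (chromosome 8, 38030341 to 38060365), the most abundant of the 10 by mean, had 399, 358 and 632 TPM in WM-1119 libraries, against 390, 500 and 580 TPM in DMSO libraries. The 3 pairs did not share a direction, and the log2 fold change was -0.11 ± 0.27. With ATF5 it was 1 of the 2 genes in which the first libraries were not the lowest.

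The median log2 fold change over the 10 genes was -0.33, beside 0.05 over all genes tested. Under WM-1119, 0% of all genes rose and 0.00804% (1 gene) fell by the test in MOLM-13, and none of the 10 was called. At an unadjusted p under 0.05, 2.08% of genes were higher and 0.965% lower, with 0 of the 10 among them. Negative fold changes were seen in 9 of 10, against 38.5% of all genes. Of the 10, 0 had every WM-1119 library below every DMSO library (2.43% of all genes) and 0 had every one above (4.54% of all genes). The median moved with single libraries: it was 0.01 without WM-1119 replicate 1, -0.85 without DMSO replicate 1, and -0.05 without either DMSO replicate 2 or DMSO replicate 3. Leaving out 1 library also makes the replicate numbers unequal between the treatments. With replicate number as a block (below) and a whole pair left out, it was -0.51 without replicate 1. It was -0.08 without replicate 2 and -0.28 without replicate 3.

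What the 10 genes shared was their level by replicate number. Both replicate 1 libraries lay below the other 4 for 8 of the 10, all but ATF5 and EIF4EBP1, a pattern seen in 5.64% of all genes. The opposite, replicate 1 above the other 4, was common among all genes (39.4%) and was found for 0 of the 10. With median-of-ratios scaling the first pattern held for 10 of 10 and the opposite for 0 of 10, each against 15.8% of all genes. On the log2(TPM + 1) scale, centred per gene, the 10 averaged -0.90, -0.03 and 0.45 in WM-1119 replicates 1 to 3 and -0.86, 0.66 and 0.69 in DMSO replicates 1 to 3. The median over all genes was 0.19, -0.00 and -0.09 in the same WM-1119 libraries and 0.14, -0.03 and -0.20 in the same DMSO libraries. The largest gap between treatments was thus in the replicate 2 libraries, and the smallest in the replicate 1 libraries.

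**Figure D2:**
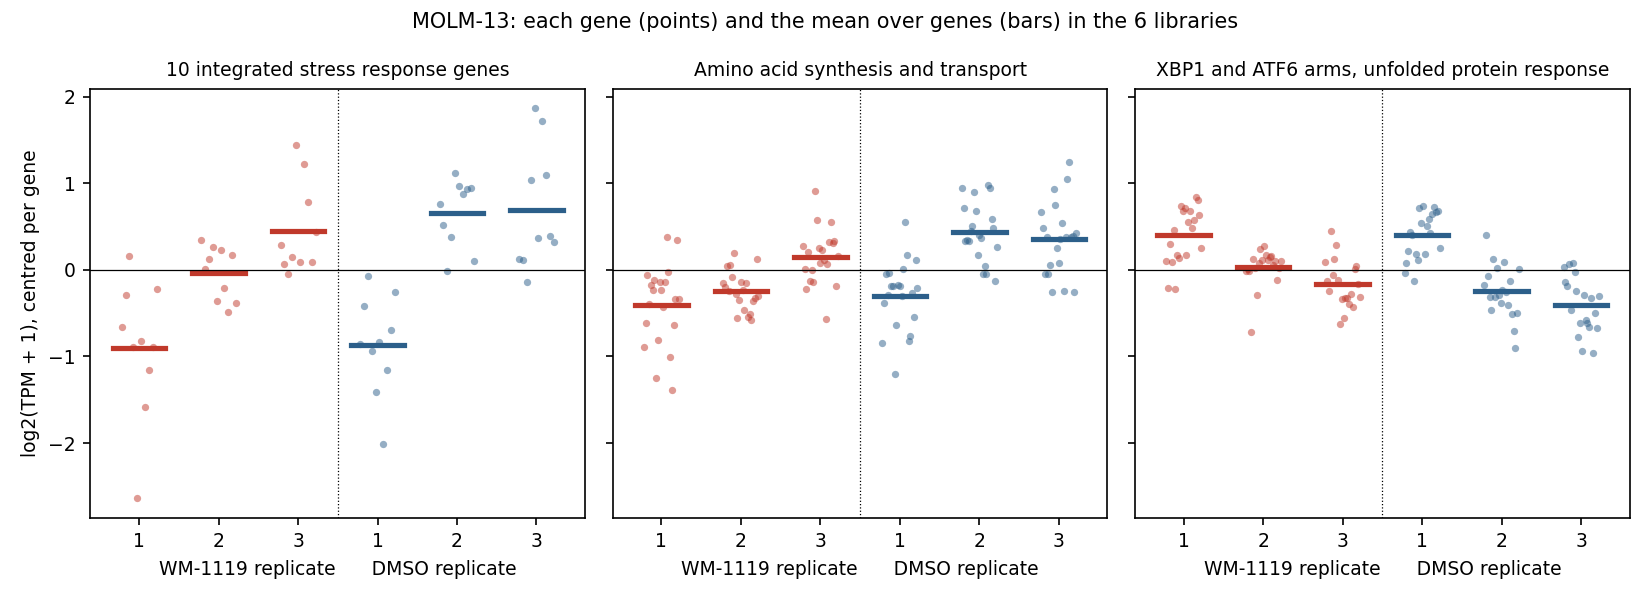
Level of each gene in the 6 MOLM-13 libraries as log2(TPM + 1) centred per gene, WM-1119 replicates in red and DMSO replicates in blue; points are genes and bars the mean over genes. The 10 stress response genes average -0.90 and -0.86 in the replicate 1 libraries of WM-1119 and DMSO, and the endoplasmic reticulum genes of the XBP1 and ATF6 arms lie high there. Both replicate 1 libraries lay above all others for 39.4% of all genes.

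Replicate number accounted for a median of 85.4% of the sum of squares of the 10 genes and treatment for 6.22%, beside 80.0% and 6.82% over all genes, so the division itself was not particular to them. Their spread was wider: the median ratio of highest to lowest library was 4.01, beside 1.74 over all genes, and the median SE of the fold change was 0.47, beside 0.23. Summed, the 10 made up 842, 979 and 1410 TPM in WM-1119 replicates 1 to 3, against 812, 1471 and 1470 TPM in DMSO replicates 1 to 3. What the replicate numbers stand for is not in the labels.

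Since same-numbered libraries deviated together, the difference was also taken within pairs, with replicate number as a block in the same model. In the replicate 1 pair 2 of the 10 genes were lower under WM-1119, DDIT4 and SESN2, against 42.9% of all genes. In the replicate 2 pair 9 were lower, all but ATF5, against 46.2% of all genes. In the replicate 3 pair 7 were lower, against 34.3% of all genes. The median difference of the 10 in the 3 pairs was 0.04, -0.62 and -0.28 (SD 0.33). The median was thus near 0 in the replicate 1 pair and negative in the other pairs. DDIT4 and SESN2, lower in every pair, were 2 of 10 beside 14.4% of all genes. With median-of-ratios scaling 5 of 10 were lower in every pair (23% of all genes), and so they were without microRNA entries (16% of all genes), ASNS, DDIT3 and TRIB3 joining DDIT4 and SESN2.

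With the block, 0% of genes passed the adjusted threshold in either direction, the 10 included. DDIT4 had the smallest p of the 10, with the log2 fold change of -1.04 now at an SE of 0.21 (limma with replicate block, adjusted p = 0.168). SESN2 followed with -0.42 ± 0.13 (limma with replicate block, adjusted p = 0.227). They were the 2 of the 10 at an unadjusted p under 0.05 and lower, beside 4.91% of all genes, and 0 of the 10 were higher at that level, beside 13.2% of all genes. With median-of-ratios scaling that split of all genes, 1645 higher and 611 lower, became 1097 higher and 1143 lower, and DDIT4, SESN2 and TRIB3 were lower at that level. For ASNS the blocked SE was 0.29 (adjusted p = 0.361 by limma) and for ATF5 it was 0.07 (adjusted p = 0.323 by limma). Without the replicate 1 pair, an alternative chosen after seeing the data, the median of the 10 was -0.51 and ASNS, CHAC1, DDIT4, SESN2 and TRIB3 were lower at an unadjusted p under 0.05, as were 532 of all 12452 genes, while 1232 were higher. Their lowest adjusted p was then 0.320 (limma with block), and 0 genes were called.

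**Figure D3:**
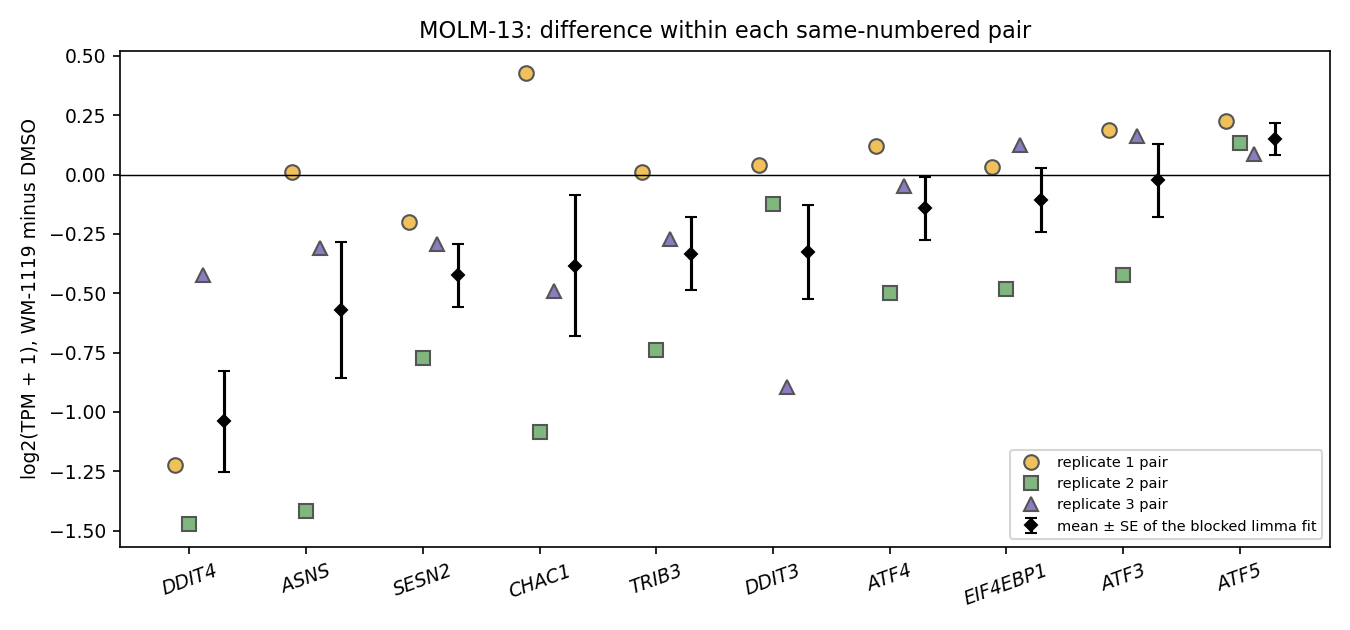
Difference of each gene within each same-numbered MOLM-13 pair, as log2(TPM + 1) of WM-1119 minus DMSO, with the mean and SE of the blocked model as black diamonds. DDIT4 and SESN2 lie below 0 in all 3 pairs and ATF5 above 0 in all 3, and for 9 of the 10 genes the replicate 2 pair lies below 0.

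In ER-Hoxa9, none of the 10 genes rose or fell under WM-1119 by the test either, but the libraries lay closer together and 4 genes had both WM-1119 values below both DMSO values. These were Ddit3, Chac1, Sesn2 and Eif4ebp1, against 7.94% of all genes. The same 4 stood below with median-of-ratios scaling, where 22.5% of all genes did. None of the 10 had both WM-1119 values above, which 40.3% of all genes had.

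Ddit3, the CHOP gene and the most abundant of the 10 in this line, had 558 and 440 TPM in WM-1119 libraries, against 689 and 590 TPM in DMSO libraries. Means were 499 ± 83.5 TPM under WM-1119 and 640 ± 70.2 TPM under DMSO (SD, n = 2 each), with a log2 fold change of -0.36 ± 0.16 (limma, adjusted p = 0.427). The groups did not overlap, though the gap between them was smaller than the distance within either group. Chac1, the glutathione-degrading enzyme, had 20.3 and 18.1 TPM in WM-1119 libraries, against 25.1 and 22.7 TPM in DMSO libraries. Its groups did not overlap, though here too the gap between them was smaller than the distance between the DMSO libraries, with a log2 fold change of -0.30 ± 0.13 (limma, adjusted p = 0.407).

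Sesn2, the mTORC1 inhibitor, had 31.9 and 25.4 TPM in WM-1119 libraries, against 38.6 and 32.3 TPM in DMSO libraries. The nearest values of the groups, 31.9 and 32.3 TPM, almost met, and the log2 fold change was -0.30 ± 0.16 (limma, adjusted p = 0.482). Eif4ebp1, the translation repressor, had 229 and 236 TPM in WM-1119 libraries, against 288 and 240 TPM in DMSO libraries. Here too the nearest values were close, and the log2 fold change was -0.18 ± 0.13 (limma, adjusted p = 0.578).

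The other 6 overlapped between groups. Atf4 had 438 and 339 TPM in WM-1119 libraries, against 383 and 364 TPM in DMSO libraries. Its log2 fold change was 0.05 ± 0.15 (limma, adjusted p = 0.919) and became -0.09 with median-of-ratios scaling and -0.03 without ribosomal protein genes, so its sign depended on the scaling. Atf5 had the largest fold change of the 10 with all libraries in, at 364 and 202 TPM in WM-1119 libraries, against 244 and 128 TPM in DMSO libraries. Each group spread more widely than the means differed, and the log2 fold change was 0.62 ± 0.40 (limma, adjusted p = 0.545). It was 0.15 without DMSO replicate 2, 0.20 without WM-1119 replicate 1, 1.04 without WM-1119 replicate 2 and 1.08 without DMSO replicate 1.

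Atf3 had 5.83 and 2.9998 TPM in WM-1119 libraries, against 5.33 and 2.61 TPM in DMSO libraries, with a log2 fold change of 0.13 ± 0.38 (limma, adjusted p = 0.909). Trib3 had 172 and 129 TPM in WM-1119 libraries, against 195 and 152 TPM in DMSO libraries, with a log2 fold change of -0.21 ± 0.20 (limma, adjusted p = 0.667). Both genes differed more within a group than between groups. Ddit4, lower in every MOLM-13 pair, had 19.2 and 29.9 TPM in WM-1119 libraries of ER-Hoxa9, against 25.8 and 27.7 TPM in DMSO libraries. The WM-1119 values enclosed the DMSO values, and the log2 fold change was -0.15 ± 0.22 (limma, adjusted p = 0.786). Asns had 131 and 109 TPM in WM-1119 libraries, against 111 and 131 TPM in DMSO libraries, and a log2 fold change of -0.01 ± 0.15 (limma, adjusted p = 0.985).

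Fold changes in ER-Hoxa9 were negative for 7 of the 10, against 28.1% of all genes, and the median was -0.16, beside 0.12 over all 11362 genes tested. Median-of-ratios scaling moved the median of all genes to -0.00 and that of the 10 to -0.30. By the test 0.0176% of all genes (2 genes) rose and 0.0176% (2 genes) fell, and 0 of the 10 were called. At an unadjusted p under 0.05, 11.6% of all genes (1322) were higher and 1.13% (128) lower, with 0 of the 10 in either set. With median-of-ratios scaling 732 genes were higher and 410 lower at that level, with Chac1, Ddit3 and Sesn2 among the lower and none of the 10 called. The median of the 10 was -0.07 without WM-1119 replicate 2 and -0.29 without DMSO replicate 2.

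Summed levels of several marker lists lay higher in the WM-1119 libraries of ER-Hoxa9. Myeloid markers summed to 5988 to 6628 TPM in WM-1119 libraries and 3849 to 5498 TPM in DMSO libraries, with Ctsg leading. Their fold changes were positive in 11 of the 11 tested, where only 28.1% of all genes had a negative one. Megakaryocyte markers summed to 49.1 to 57.2 TPM in WM-1119 libraries and 23.8 to 40.9 TPM in DMSO libraries. Gp9 led them, and of the 4 tested 3 had a positive and 1 a negative fold change. B cell markers summed to 8.62 to 12.5 TPM in WM-1119 libraries and 1.82 to 4.43 TPM in DMSO libraries; these were mainly Cd79a, and Ms4a1 was listed at 0. T or NK cell markers, led by Ncam1, summed to 29.3 to 31.1 TPM under WM-1119 and 20.5 to 28.4 TPM under DMSO. Of the 3 tested, 2 had a positive fold change and the T cell gene Cd3d a negative one, with Cd3e and Cd3g listed at 0. Erythroid markers (3.34 to 3.70 TPM under WM-1119 and 2.74 to 6.87 TPM under DMSO) and stromal markers (11.98 to 19.1 TPM under WM-1119 and 13.1 to 19.3 TPM under DMSO) overlapped between groups. The myeloid gene Lyz2 was listed at 0 in every ER-Hoxa9 library. Their part in the values of the 10 genes was not tested.

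By mean level over all libraries of a line, in TPM, the 2 lines ranked the 10 genes differently. In MOLM-13, EIF4EBP1 (476 TPM) and ATF4 (423 TPM) overlapped each other and lay above DDIT4 (89.2 TPM) with no overlap. From DDIT4 on, through TRIB3, ASNS, ATF5, DDIT3, SESN2 and CHAC1 to ATF3 (5.17 TPM), each gene's range overlapped that of the next. In ER-Hoxa9, Ddit3 came first (569 TPM), then Atf4 (381 TPM), each apart from the next. Eif4ebp1, Atf5, Trib3 and Asns followed in overlapping order at 248 to 121 TPM. Below them, Sesn2, Ddit4 and Chac1 overlapped at 32.1 to 21.6 TPM and Atf3 lay lowest, apart, at 4.19 TPM. CHOP mRNA thus had 16.5 TPM in MOLM-13 and 569 TPM in ER-Hoxa9. The 2 tables differ in species and were normalized separately, with different doses, so the difference between lines was not tested.

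The other genes of the pathway were read from 8 lists, of which 0 genes passed the test in either direction in either line. In MOLM-13 the list nearest to ASNS, amino acid synthesis and transport, had 17 of 21 genes lower in every pair and 20 negative fold changes, with a median log2 fold change of -0.29. Its most abundant gene, the glutamine transporter SLC1A5, had 171, 189 and 200 TPM in WM-1119 libraries, against 176, 275 and 208 TPM in DMSO libraries. The cytosolic aminoacyl-tRNA synthetases, which charge tRNAs and which ATF4 also acts on, had 10 of 20 lower in every pair and a median of -0.14, with FARSA leading by level. Of the other described ATF4 and CHOP targets, 5 of the 16 tested were lower in every pair, with a median of -0.15. TXNIP led them by level, and FGF21 was listed at 0. Over all genes the share lower in every pair was the 14.4% given above. No difference between lists was tested.

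Upstream and parallel branches of MOLM-13 follow. The eIF2 kinases, eIF2, eIF2B and eIF2 phosphatase genes had 4 of 17 lower and 5 higher in every pair, a median of 0.04, and EIF2S3 leading. The bZIP partners of ATF4, led by JUND, had 1 of 9 lower in every pair. Of these partners 4 of 9 were higher in every pair, beside the 28.6% of all genes given above. With median-of-ratios scaling 3 of 9 were higher in every pair, beside 19.5% of all genes. The XBP1 and ATF6 arms of the unfolded protein response, which make chaperones of the endoplasmic reticulum, had 0 of 20 lower in every pair and 10 higher in every pair, with a median of 0.18. With median-of-ratios scaling the amino acid list had 18 of 21 lower in every pair, beside 23% of all genes. The XBP1 and ATF6 arms then had 2 of 20 lower, and 4 of 20 higher beside 19.5% of all genes. Calreticulin (CALR), the most abundant gene of these arms, had 1312, 965 and 542 TPM in WM-1119 libraries, against 1330, 677 and 416 TPM in DMSO libraries. It was highest in the replicate 1 libraries, where the 10 stress response genes were low. This held for 15 of the 20 genes of these arms, beside the 39.4% of all genes above. It was not particular to them, as it also held for 10 of 12 mitochondrial stress and 10 of 17 eIF2 group genes. Of the mTORC1 control genes it held for 12 of 26, of the synthetases 6 of 20 and of the bZIP partners 3 of 9. Of the amino acid genes it held for 1 of 21 and of the other targets 1 of 16. Replicate 1 libraries were the lowest for 11 of the 21 amino acid genes and for 10 of the 16 other targets. The mTORC1 control genes (2 of 26 lower and 9 higher in every pair, LAMTOR4 leading) and the mitochondrial stress genes (6 of 12 lower and 1 higher, HSPD1 leading) made up the rest.

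**Figure D4:**
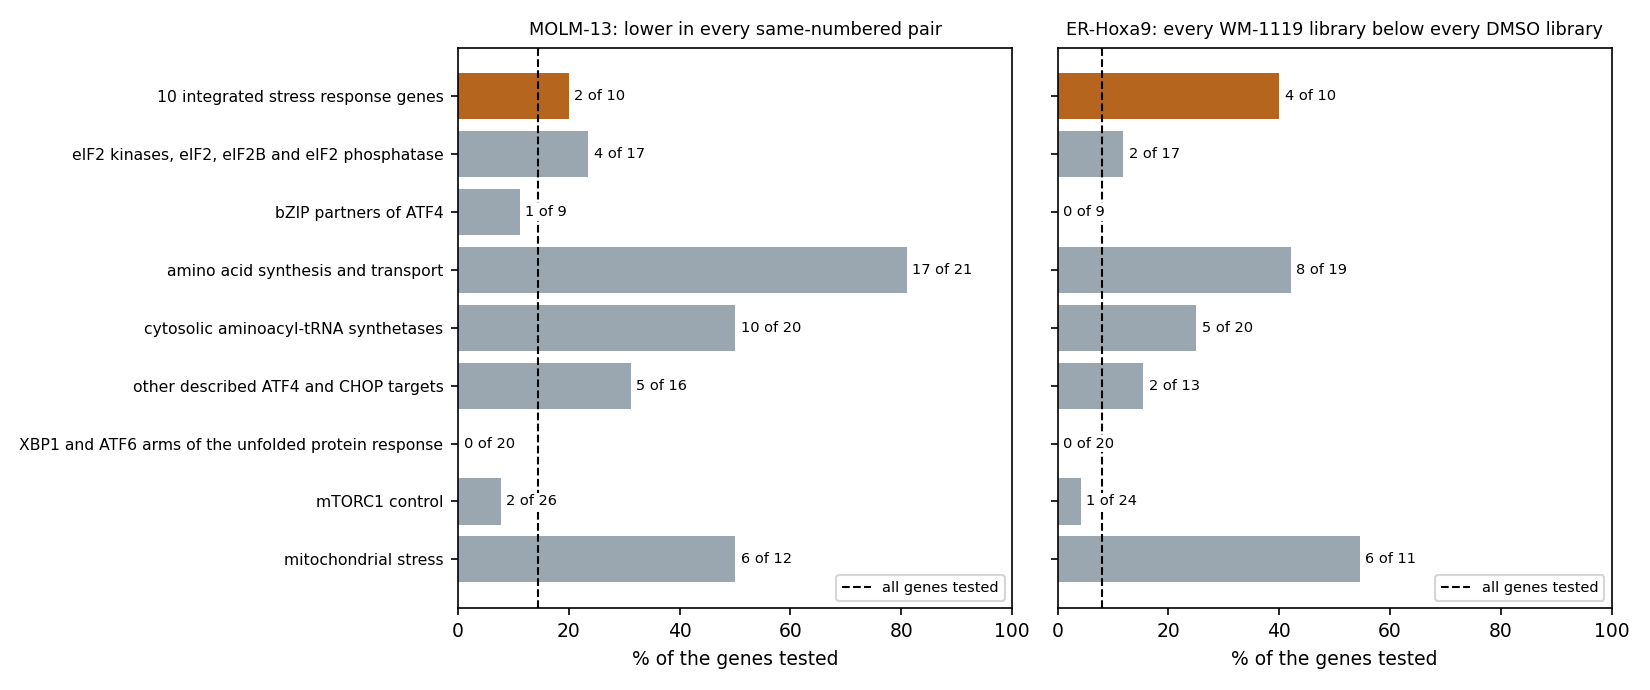
Percent of tested genes of each list that were lower under WM-1119 in every same-numbered pair (MOLM-13, left) or had both WM-1119 libraries below both DMSO libraries (ER-Hoxa9, right), with the 10 stress response genes in brown. The dashed line is the share over all genes tested, 14.4% in MOLM-13 and 7.94% in ER-Hoxa9.

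In ER-Hoxa9 the amino acid list had 8 of 19 tested genes with both WM-1119 values below both DMSO values, and the mitochondrial stress list 6 of 11, against the 7.94% of all genes given above. Psat1, an enzyme of serine synthesis and the most abundant of the amino acid list, was not one of the 8, with 678 and 639 TPM in WM-1119 libraries, against 605 and 743 TPM in DMSO libraries. The synthetases had 5 of 20, among them Nars, at 248 and 218 TPM in WM-1119 libraries, against 284 and 268 TPM in DMSO libraries. With median-of-ratios scaling the counts were 11 of 19 amino acid genes, 8 of 11 mitochondrial stress genes and 13 of 20 synthetases, when the share over all genes was 22.5%. The eIF2 group had 2 of 17, the other ATF4 and CHOP targets 2 of 13 and the mTORC1 control genes 1 of 24. The bZIP partners had 0 of 9 and the XBP1 and ATF6 arms 0 of 20. Their leading genes by level were Eif2s3x, Ero1l, Lamtor4, Cebpa and Calr, and Hspa9 led the mitochondrial stress list. With median-of-ratios scaling 3 of the 20 genes of the XBP1 and ATF6 arms and 8 of the 24 mTORC1 control genes lay below.

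Genes with the profile most like the mean of the 10 were sought by the root mean square difference of centred log2(TPM + 1). Over the 6 MOLM-13 libraries and 8414 candidate genes, H1F0, a linker histone, was nearest at 0.0557. It had 3.75, 7.68 and 10.3 TPM in WM-1119 libraries, against 3.65, 11.6 and 12.3 TPM in DMSO libraries. RASA4B (0.206) and IZUMO4 (0.220) followed, and RASA4B shares sequence with RASA4, so its reads are uncertain. Among the 10 themselves, SESN2 (0.275), DDIT3 (0.280) and TRIB3 (0.289) lay nearest to the mean of the other 9, and DDIT4 (1.11), CHAC1 (0.851) and ATF5 (0.807) farthest. Over the 4 ER-Hoxa9 libraries and 7854 candidates, C1galt1c1 (0.00870), Chd3 (0.00988) and Tgoln1 (0.0111) were nearest. With so few libraries, and the libraries shared by all genes, such likeness is a description only.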

How the data were processed

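RNA sequencing of 10 libraries was analysed. The authors deposited 1 table of TPM, transcripts counted against all transcripts of a library and corrected for length, per line. The submitters' processing notes name Salmon and the builds hg38 and mm10; version, annotation and use of strand are not given in those notes. TPM keep no depth, so no counting interval is given, and a rise of abundant transcripts lowers all others. The mouse table's headers name the line otherwise than the labels; they were taken as ER-Hoxa9, the series' mouse line. No 2 libraries held identical values (0 pairs).

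Each line was analysed alone with limma 3.58.1 (R 4.3.3; eBayes, trended prior) on log2(TPM + 1), two-sided, for genes averaging 1 TPM or more, with Benjamini-Hochberg adjustment over all genes tested and a threshold of 0.05. The procedure was tested on simulated data, with planted changes larger than the fold changes of the 10 genes with all libraries in. That test therefore does not speak to changes of their size. All 10 genes passed the filter in both lines. MOLM-13 replicate numbers were taken as pairs because deviations from the group means of same-numbered libraries correlated at 0.522, 0.438 and 0.608 across genes; the labels do not say what a number shares.

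The genes, lists and tests were chosen with earlier results of these data known. Named were the 10 genes, the most abundant gene of each list (none was called), and the 3 genes per line with a mean of at least 5 TPM most like their mean profile. The summed B cell markers of MOLM-13 are not reported here. Human gene coordinates are from GRCh38 with GENCODE annotation, and upstream sequences from RefSeq (GRCh38.p14), trimmed of 4 exon bases for DDIT4; mouse sequences were not used here. Alternatives were other pseudocounts, filters, scalings, the replicate block and leaving out libraries. Plots used Python 3.11.15 and matplotlib 3.10.9.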

Additional observations from a re-analysis of the deposited data

How the results depend on the processing

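None of the 10 genes was called under any alternative run in either line. In MOLM-13 the number of all genes called, 1 as reported, was 0 with no filter, with the replicate block, also under median-of-ratios scaling, and in each blocked fit without 1 pair (3 fits added after seeing the data), and 0 to 6 when 1 library was left out. The median of the 10 then ranged from -0.85 to 0.0053. In ER-Hoxa9 the 4 calls became 0 with a pseudocount of 0.1, no filter, a filter at 5 TPM (which leaves 9 of the 10 genes tested), the replicate block, the block with median-of-ratios scaling and every left-out library, and 1 with microRNA entries removed. The ER-Hoxa9 median was -0.30 with median-of-ratios scaling, with or without the block, -0.24 without ribosomal protein genes, and -0.29 to -0.075 with 1 library left out. Atf4 in ER-Hoxa9 turned to -0.088 with median-of-ratios scaling, also with the block, and to -0.030 without ribosomal protein genes. Leaving out 1 library turned the sign, over its range, of ATF3 (-0.46 to 0.35), ATF4 (-0.38 to 0.078), CHAC1 (-1.49 to 0.38), DDIT3 (-0.88 to 0.11), DDIT4 (-2.02 to 0.020), EIF4EBP1 (-0.35 to 0.055) and TRIB3 (-0.83 to 0.066) in MOLM-13. In ER-Hoxa9 it did so for Asns (-0.14 to 0.12), Atf3 (-0.28 to 0.53), Atf4 (-0.14 to 0.23) and Ddit4 (-0.46 to 0.15), where the lone library of a group is assumed to vary like the others. The blocked MOLM-13 fits without 1 pair keep the replicate numbers equal between the treatments. Without the replicate 2 pair they gave 0.18 for ATF3, 0.036 for ATF4 and 0.079 for EIF4EBP1. DDIT4 stayed negative in them, at -0.95, -0.82 and -1.35 without replicate pairs 1, 2 and 3. The cause of the sign changes was not tested. With 1 library left out the other genes kept their sign, in MOLM-13 over -1.30 to -0.14 (ASNS), -0.88 to -0.059 (SESN2) and 0.11 to 0.21 (ATF5), in ER-Hoxa9 over 0.15 to 1.08 (Atf5), -0.38 to -0.22 (Chac1), -0.54 to -0.19 (Ddit3), -0.46 to -0.14 (Sesn2), -0.31 to -0.046 (Eif4ebp1) and -0.41 to -0.0060 (Trib3). The ER-Hoxa9 numbers were not taken as pairs: same-numbered libraries correlated at 0.206 in deviation, with 2 pairs only. Blocked on them, 0 genes were called, the lowest adjusted p of the 10 was 0.169 (limma, Atf5), and Ddit3, Chac1 and Sesn2 (lower) and Atf5 (higher) had an unadjusted p under 0.05, beside 273 lower and 1761 higher of all 11362 genes. TPM give no depth, so what depth limits could not be assessed.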
